A study of Mus musculus with 9 samples.

Results

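Dopamine acts on cells of the striatum through 5 G protein-coupled receptors. Those encoded by Drd1 and Drd5 stimulate adenylyl cyclase, and those encoded by Drd2, Drd3 and Drd4 inhibit it. In the nucleus accumbens, the ventral part of the striatum, Drd1 and Drd2 mark the separate kinds of medium spiny neuron, the projection cells that make up most of the tissue, while cholinergic interneurons are known to carry Drd2 and Drd5. After release, dopamine is taken back up by its transporter or broken down inside cells by the mitochondrial monoamine oxidases, encoded by Maoa and Maob. Maob is known as a gene of astrocytes and of serotonin neurons, and Maoa as a gene of catecholamine neurons. These 7 genes, taken by name from 52636 genes in the count table, are described here, and all 7 were in the table and passed the filter on low counts that left 39210 genes.

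The 9 RNA sequencing libraries came from male C57BL/6 mice, 3 libraries in each of 3 groups titled SUS, RES and WT. SUS and RES mice had self-administered cocaine, up to 40 infusions in the fixed ratio phase and then 10 days of progressive ratio sessions of 23 h per day at 1.2 mg/kg per infusion. WT libraries are labelled cocaine-naive, and no transgene or mutation is named for any group. On day 3 after the last session, punches of the nucleus accumbens of 2 to 3 mice per condition were pooled and dissociated, and ChAT-labelled cells were sorted (ChAT synthesises acetylcholine). Whether each library had a pool of its own is not stated, and each p-value below therefore covers the spread among these libraries alone, which may be technical. For the SUS libraries the behavioural field of the labels says resilient and for the RES libraries susceptible, opposite to the titles, so groups go by their titles here, without reading either as the susceptible one.

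Total counts were 8081639 to 11155730 in SUS, 4574518 to 6895457 in RES and 4471675 to 10667056 in the drug-naive libraries. Mitochondrial genes took 9.09% to 28.7% of counts. A level is given below as times background, the counts per exonic kb of a gene divided by the counts per exonic kb of 1134 olfactory receptor genes, which the brain is not known to use and which held 6.07 to 21.2 counts per kb. A list of 40 autosomal genes of other tissues had medians of 1.60 to 2.08 times background over the libraries, and a list of 21 such X-linked genes 0.623 to 0.816. These silent genes show the level that can be reached with no known expression, and the Drd genes are autosomal while Maoa and Maob are X-linked. The labelled cell type was not visible in its marker list as a whole. Of 12 cholinergic markers, 0 averaged over 3 times background (list medians 1.04 to 2.08). Chat, the ChAT gene, was at 7.86 times background in SUS replicate 2 and at 0.877 to 2.5 in the other libraries. In SUS replicate 2 the list median and the marker Slc18a3 (2.29 times background) were also at their highest, and the marker Slc5a7 (0.8) at its lowest. All 16 medium spiny neuron markers averaged over 3 times background, with list medians of 3.06 to 12.0, as did 12 of 14 astrocyte markers and 16 of 16 microglial markers. The libraries are therefore called by their group titles and not by a cell type. In such mixed samples fewer cells of a type and less RNA per cell cannot be told apart.

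For 4 genes, from the highest to the lowest receptor as counted and an oxidase, the sequences before the transcription start are printed first. They are RefSeq promoters of GRCm38.p6, read 5′ to 3′ on the gene's own strand, and hold only bases that lie before the start in both RefSeq and GENCODE. RefSeq windows were found for 6 of the 7 genes. Capitals mark the GC box GGGCGG or its reverse complement CCGCCC, the element bound by Sp1-type factors, and in Maoa also TGACG, the core of the cAMP response element.
Drd1, chr13:54055706-54055908, minus strand: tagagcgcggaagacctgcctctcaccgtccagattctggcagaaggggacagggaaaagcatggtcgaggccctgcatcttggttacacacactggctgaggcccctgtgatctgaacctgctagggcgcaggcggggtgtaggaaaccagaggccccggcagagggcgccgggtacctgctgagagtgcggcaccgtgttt
Drd2, chr9:49340153-49340402, plus strand: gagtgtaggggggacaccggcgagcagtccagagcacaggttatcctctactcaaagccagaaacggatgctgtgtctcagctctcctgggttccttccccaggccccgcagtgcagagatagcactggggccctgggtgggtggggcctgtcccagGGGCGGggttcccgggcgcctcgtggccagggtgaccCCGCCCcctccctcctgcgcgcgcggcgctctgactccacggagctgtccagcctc
Drd5, chr5:38319259-38319366, plus strand: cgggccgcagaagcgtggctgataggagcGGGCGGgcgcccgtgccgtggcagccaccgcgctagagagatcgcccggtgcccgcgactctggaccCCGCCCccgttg
Maoa, chrX:16619448-16619697, plus strand: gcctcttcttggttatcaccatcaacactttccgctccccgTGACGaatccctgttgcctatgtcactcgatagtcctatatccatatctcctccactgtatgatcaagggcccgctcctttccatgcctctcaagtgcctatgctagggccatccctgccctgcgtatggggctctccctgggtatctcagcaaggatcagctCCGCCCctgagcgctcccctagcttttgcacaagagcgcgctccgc

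In the windows of 250 bases before the RefSeq start, searched on both strands with overlapping matches counted, the GC box occurred in 2 places for Drd2, 2 for Drd5, 3 for Drd4 and 1 for Maoa, and in 32.7% of 32851 promoter windows. Drd2, the highest receptor, and Drd5, the lowest as counted, both had 2 matches. The level of Drd5, and so its rank, is uncertain for a reason given below. A relation of matches to level was not tested. The window of Drd1 printed above held none, and a second RefSeq window of Drd1 held 1. The Drd3 window held none. The motif TATAAA of core promoters was in none of the windows of the 6 genes and in 12.4% of all. The AP-1 motif TGANTCA was likewise in none of them and in 6.75% of all, and TGACG was in that of Maoa alone among them and in 17.8% of all. The Drd5 window had 71.2% G and C with 35 CpG pairs and that of Drd2 68.8% with 15, against medians of 52.4% and 6 over all windows. The Drd3 window was below both medians, with 39.2% and 1. Only 108 of the 250 bases of the Drd5 window lie before the GENCODE start, and the rest lie in its annotated exon. None of the Drd3 window lies before the GENCODE start. A match is a description of the letters and not a binding site.

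Drd2 was the highest of the 7 genes and the only one to average over 3 times background. Drd2 (ENSMUSG00000032259, chromosome 9, 49340627 to 49408177, GRCm38) encodes the main inhibitory receptor of the striatum. Replicates 1 to 3 of SUS held it at 5.05, 9.74 and 2.94 times background, those of RES at 6.33, 11.4 and 3.83 and drug-naive ones at 4.93, 9.57 and 7.68. The groups overlapped, and the lowest libraries were SUS replicate 3 and RES replicate 3. Drd2 was the highest of the 7 genes per exonic kb in 8 of 9 libraries, the exception being SUS replicate 3, and it was 3.55 times the median of the silent autosomal list on average. Its CPM (counts scaled by the library total and its TMM factor) averaged 30.4 ± 16.9 in SUS, 35.9 ± 13.7 in RES and 36.8 ± 8.80 in drug-naive libraries (SD, n = 3 each). The interval of its log2 fold change between cocaine and drug-naive libraries was -0.84 to 0.55, so a change of up to about the size of those bounds lies within the error.

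Drd1, which encodes the main stimulatory receptor, varied most between libraries among the genes above background. Drd1 (ENSMUSG00000021478, chromosome 13, 54051183 to 54055705) had levels of 1.20, 5.15 and 1.80 over replicates 1 to 3 of SUS, 2.23, 5.34 and 1.69 in RES and 1.55, 2.36 and 3.72 in drug-naive libraries (times background). SUS replicate 2 and RES replicate 2 were the high libraries, and SUS replicate 1 was the lowest. Its counts were 78, 335 and 122 in SUS, 102, 155 and 108 in RES and 92, 52 and 286 in drug-naive libraries. Per exonic kb, Drd1 lay above the median of the silent autosomal list in 6 of 9 libraries, while Drd2 did so in 9 of 9. The highest library was 4.40 times the lowest in CPM for Drd1 and 2.94 times for Drd2.

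**Figure D1:**
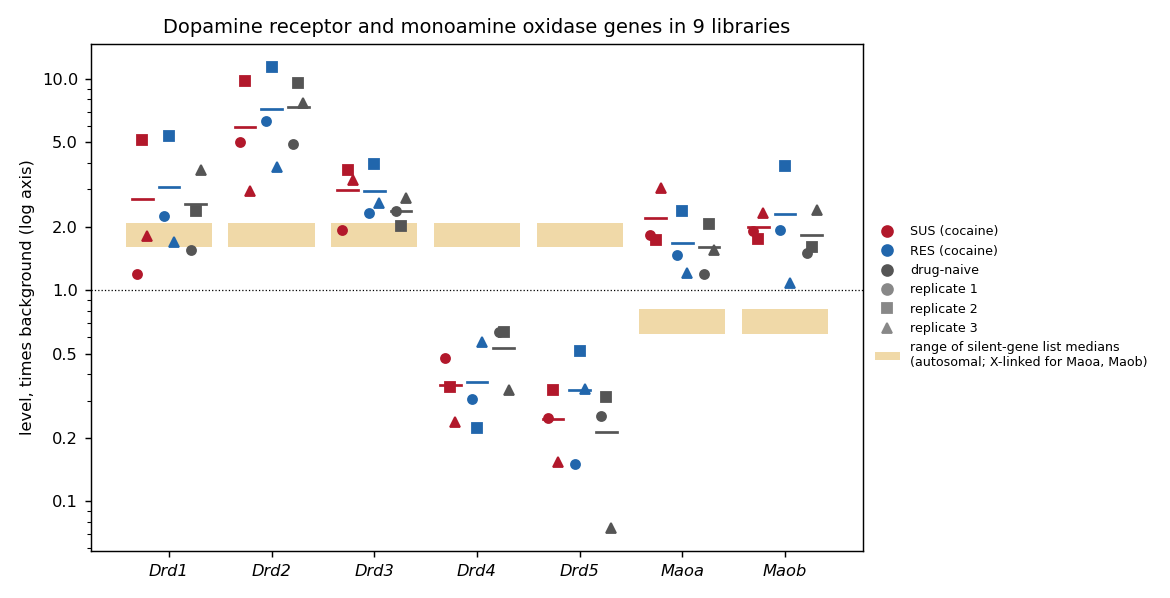
Level of each gene in the 9 libraries as times background on a log axis, with SUS, RES and drug-naive libraries from left to right in each gene, a bar at each group mean (n = 3) and symbols for the replicate. Drd2 averages 6.83 times background, Drd4 and Drd5 lie below 1 in 9 of 9 libraries, and the shaded bands give the range of the silent-gene medians.

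Drd4 and Drd5 lay below the median of the silent genes in 9 of 9 libraries, and Drd3 lay near Drd1. Drd3 (ENSMUSG00000022705, chromosome 16, 43754026 to 43822932), an inhibitory receptor of the ventral striatum, was at 1.92 to 3.71 times background in SUS, 2.32 to 3.94 in RES and 2.02 to 2.73 in drug-naive libraries. It lay above the silent median in 9 of 9 libraries, and its average was higher than that of 32 of the 40 silent genes, the same number as for Drd1. Drd3 was 1.46 and Drd1 1.44 times the silent median on average. Drd4 (ENSMUSG00000025496, chromosome 7, 141292006 to 141296464), an inhibitory receptor of cortex and other forebrain areas, was at 0.238 to 0.477 times background in SUS, 0.222 to 0.571 in RES and 0.335 to 0.634 in drug-naive libraries. Drd5 (ENSMUSG00000039358, chromosome 5, 38319367 to 38322518), the second stimulatory receptor, was at 0.153 to 0.336 in SUS, 0.151 to 0.515 in RES and 0.0749 to 0.314 in drug-naive libraries. Drd4 averaged above 1 of the 40 silent genes and Drd5 above 0. Drd4 had 65, 53 and 72 counts summed over the 3 libraries of SUS, RES and drug-naive mice, and Drd5 had 42, 38 and 24.

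The counts of Drd5 carry 2 further limits. The lowest, 5 counts in drug-naive replicate 3, has an exact 95% Poisson interval of 1.62 to 11.7 counts, which covers counting error only. In the annotation, 1531 of its 3152 exonic bases (48.6%) also lie in exons of the antisense gene Gm26560, whose counts were 21, 20 and 47 in SUS, 13, 25 and 23 in RES and 30, 5 and 23 in drug-naive libraries. The strand setting of the counting is not given in the sources used here, so reads from the shared stretch cannot be assigned to Drd5 or Gm26560, and the level of Drd5 is uncertain. No other gene of the 7 shared exonic bases with an annotated gene. The G and C content of the longest transcript was 57.8% for Drd4, 55% for Drd2, 53.2% for Drd3, 52.7% for Drd5 and 46% for Drd1, against medians of 39% for the olfactory receptor genes and 52.5% for the silent autosomal genes. Its part in the levels was not tested. Among the silent genes, the 8 with at least 55% G and C had a median of 2.75 times background (0.353 to 3.73) and the other 32 a median of 1.81.

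Both monoamine oxidase genes were above the median of the silent X-linked genes in 9 of 9 libraries. Maoa (ENSMUSG00000025037, X chromosome, 16619698 to 16687818, plus strand) prefers serotonin and noradrenaline as substrates, and Maob (ENSMUSG00000040147, X chromosome, 16709282 to 16817366, minus strand) phenylethylamine, while dopamine is broken down by both. Maoa had levels of 1.83, 1.73 and 3.06 over replicates 1 to 3 of SUS, 1.47, 2.37 and 1.20 in RES and 1.19, 2.06 and 1.55 in drug-naive libraries (times background). SUS replicate 3 stood highest, and the other 8 libraries lay between 1.19 and 2.37. Maob was at 1.90, 1.74 and 2.32 in SUS, at 1.94, 3.85 and 1.08 in RES and at 1.49, 1.59 and 2.40 in drug-naive libraries. RES held both its highest library, replicate 2, and its lowest, replicate 3. Measured against the silent X-linked list instead, Maoa averaged 2.44 and Maob 2.69 times the median, and Maoa exceeded 19 and Maob 20 of the 21 genes. The CPM of Maob averaged 11.5 ± 2.71 in SUS, 12.4 ± 5.81 in RES and 10.1 ± 2.65 in drug-naive libraries (SD, n = 3 each), and that of Maoa 19.3 ± 8.21 in SUS, 14 ± 2.79 in RES and 13.1 ± 2.48 in drug-naive libraries.

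The libraries with high Drd1 and Drd2 per exonic kb were also those with high markers of medium spiny neurons. The medians of the 16 markers, as times background, were 5.06, 11.2 and 3.13 over replicates 1 to 3 of SUS, 6.61, 12.0 and 3.06 in RES and 4.22, 9.72 and 8.36 in drug-naive libraries. The 4 libraries with the highest values of this list, RES replicate 2, SUS replicate 2 and drug-naive replicates 2 and 3, were also the 4 highest for Drd2 and the 4 highest for Drd1. Drd1 and Drd2 each shared 3 of their 4 highest libraries with the astrocyte list as well, so the overlap was not with one list alone. Gene and marker levels are divided by the same background in each library, and can rise or fall together through it. In CPM the fourth library for Drd1 was RES replicate 1 (17.9) and not drug-naive replicate 2 (15.7). The summed CPM of the list was 1145 to 4311 in SUS, 1268 to 4186 in RES and 2255 to 4168 in drug-naive libraries, and 0 of its genes had no counts. The part of this variation in the group comparisons was not tested. For Maoa, 3 of the 4 highest libraries were among the 4 highest of the 16 microglial markers, and likewise 3 of 4 for the astrocyte list. Genes below the silent median reached the same overlap, Drd4 with 3 of 4 for the microglial list and Drd5 with 3 of 4 for medium spiny neurons. Such a count is therefore not a link to a cell type. The microglial markers had a summed CPM of 315.5 to 6901 in SUS, 141.5 to 2207 in RES and 363.8 to 4030 in drug-naive libraries. For Maob, the 4 highest libraries shared 2 with the astrocyte list and 2 with the medium spiny neuron list. The 14 astrocyte markers had a summed CPM of 2324 to 3626 in SUS, 1192 to 6106 in RES and 2052 to 5585 in drug-naive libraries. RES replicate 3, the lowest library for Maob, was also the lowest for the astrocyte list, at a median of 4.53 times background, and RES replicate 2 was the highest in both, at 29.5.

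**Figure D2:**
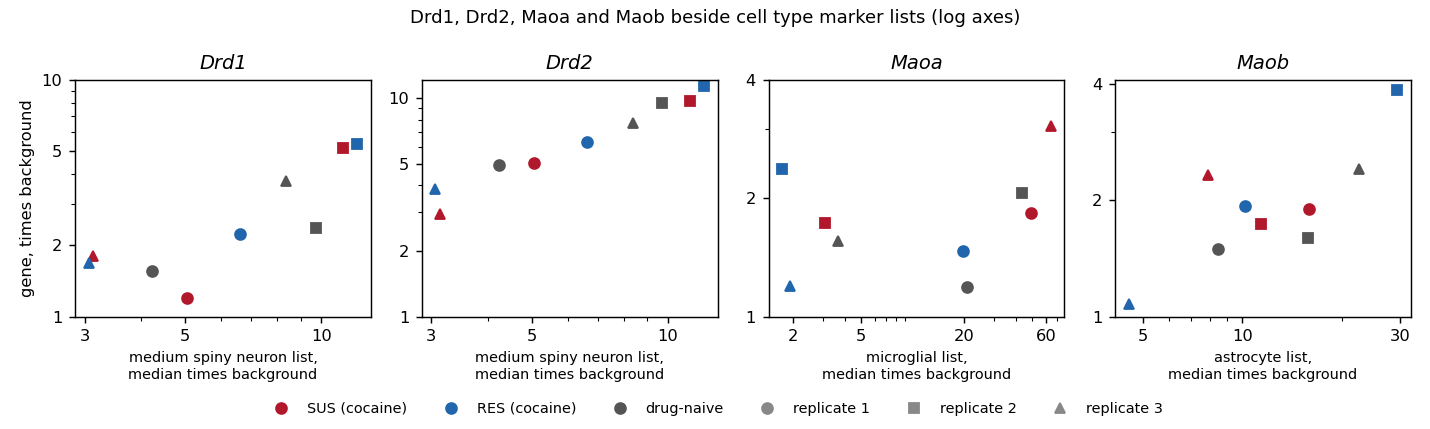
Level of Drd1, Drd2, Maoa and Maob in each library (vertical, times background) against the median level of a marker list in the same library (horizontal, times background), on log axes, with 1 point per library. Drd2 runs from 2.94 (SUS replicate 3) to 11.4 (RES replicate 2), and the medium spiny neuron list from 3.06 (RES replicate 3) to 12.0 (RES replicate 2). Maoa is high in SUS replicate 3 with a microglial median of 64.1 and in RES replicate 2 with 1.72. Both axes are divided by the same background of each library.

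The genes whose pattern over the 9 libraries was most like that of Drd2 were Khdrbs2, which encodes an RNA-binding protein, Pcnx2, a member of the pecanex family, and Sptb, a spectrin of the membrane skeleton. Likeness was the root mean square difference between log2 CPM values, each gene centred on its own mean, among 12898 annotated genes of at least 10 CPM. It was 0.0887 for Khdrbs2, 0.0891 for Pcnx2 and 0.0948 for Sptb, where the spread of Drd2 about its own mean was 0.513. Drd1 stood at rank 3803 with 0.45, Maob at rank 8200 with 0.602 and Maoa at rank 10828 with 0.726. The values are a description of 9 libraries that share the depth and mixture of cells of each library. Drd2 was the only one of the 7 genes above the level of 3 times background that was set for this search.

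The 4 comparisons asked how the groups that took cocaine differed from drug-naive mice and from each other. In none of them did any of the 7 genes pass the test, and the libraries of the groups compared overlapped for each gene. By the edgeR quasi-likelihood test with Benjamini-Hochberg adjustment, 0 of 7 genes passed in each comparison, where 0% of the 39210 genes tested did, and the smallest adjusted p of the 7 was 0.888 (Maoa, SUS against RES). At an unadjusted p under 0.05 there were again 0 of 7 in each, where all genes gave 361 (0.921%) in RES against naive, 1225 (3.12%) in SUS against naive, 2227 (5.68%) in SUS against RES and 541 (1.38%) with the cocaine groups joined. Neither DESeq2 (unadjusted 317, 1094, 2045 and 628 genes) nor limma-voom with weighted samples (1671, 3225, 3734 and 1697) called a gene, that is 0 in each comparison, and both gave 0 of 28 values of the 7 genes an unadjusted p under 0.05. Groups without overlap, found for 0 of 7 genes, occurred for 3.31% of all genes higher and 2.82% lower in RES against naive, 3.85% and 4.15% in SUS against naive, 3.41% and 4.22% in SUS against RES, and 0.617% and 0.553% in cocaine against naive. Comparisons that share the drug-naive libraries are not independent of each other.

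In RES against drug-naive libraries, 5 of the 7 log2 fold changes were above 0 and 2 below, with a median of 0.23 where all genes had -0.02 and 47.4% of them were above 0. Among the receptors, Drd1 had 0.23 (SE 0.466), Drd2 -0.03 (SE 0.382), Drd3 0.29 (SE 0.287), Drd4 -0.35 (SE 0.467) and Drd5 0.76 (SE 0.608). The value of Drd5 was the largest of the 7 and had the widest interval, -0.53 to 2.06, on 38 and 24 summed counts. Maoa had 0.11 (SE 0.296) and Maob 0.24 (SE 0.326). The direction rested on single libraries for 4 genes. Without RES replicate 2, Drd1 was at -0.19, Maoa at -0.04 and Maob at -0.13. Drd2 was at 0.13 without drug-naive replicate 2 and 0.22 without RES replicate 3, and Maoa at -0.02 without drug-naive replicate 1.

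In SUS against drug-naive libraries, Maoa came nearest to the threshold of the 7 genes, without reaching it. It averaged 19.3 ± 8.21 CPM in SUS and 13.1 ± 2.48 in drug-naive libraries (SD, n = 3 each), a log2 fold change of 0.58 (SE 0.289, interval -0.04 to 1.19, unadjusted p = 0.0643 and adjusted p = 0.9998 by edgeR). Its CPM was 14.8, 14.3 and 28.8 in SUS replicates 1 to 3, against 10.8, 15.7 and 12.7 in drug-naive libraries. SUS replicate 3 alone was above every drug-naive library, and without it the log2 fold change was 0.18. It was 0.71 without drug-naive replicate 2 (unadjusted p = 0.0486 by edgeR), 0.73 without SUS replicate 1 (unadjusted p = 0.0364) and 0.75 without SUS replicate 2 (unadjusted p = 0.0194), with adjusted p-values of 0.549 to 0.9999. Drd1 had 0.13 (SE 0.461), Drd2 -0.27 (SE 0.381), Drd3 0.36 (SE 0.28), Drd4 -0.53 (SE 0.458), Drd5 0.35 (SE 0.600) and Maob 0.16 (SE 0.32). Of the 7, 5 were above 0 with a median of 0.16, where 52.2% of all genes were and their median was 0.02. Without SUS replicate 2, Drd1 was at -0.67 and Drd2 at -0.81, and limma-voom with weighted samples put Drd1 at -0.64. Drd1 also turned to -0.09 without drug-naive replicate 1, Drd2 to 0.02 and Maob to -0.06 without SUS replicate 3, and Drd5 to -0.16 without drug-naive replicate 3. With sample weights Drd3 was at -0.15 and Maob at -0.01.

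In SUS against RES, 2 of the 7 genes had log2 fold changes above 0 and 5 below, with a median of -0.10 where all genes had 0.01 and 51.2% of them were above 0. Maoa had 0.47 (SE 0.288, interval -0.14 to 1.09), with 0.07 without SUS replicate 3 and 0.65 without SUS replicate 2, and Drd3 0.06 (SE 0.278). Drd1 had -0.10 (SE 0.46), Drd2 -0.23 (SE 0.381), Drd4 -0.18 (SE 0.465), Drd5 -0.41 (SE 0.570) and Maob -0.09 (SE 0.32). Without SUS replicate 2, Drd1 was at -0.90 and Drd2 at -0.77, and without RES replicate 2 they were at 0.31 and 0.06. Drd1 was at 0.25 without SUS replicate 1 and 0.08 without SUS replicate 3, and Drd2 at 0.05 without SUS replicate 3. Of the other genes, Drd3 turned without RES replicate 1 (-0.06), SUS replicate 2 (-0.09) or SUS replicate 3 (-0.09), Drd4 without RES replicate 3 (0.42), and Maob without RES replicate 2 (0.29) or SUS replicate 2 (0.03). Sample weights gave Drd3 -0.31, Drd4 0.26 and Drd5 0.07.

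With both cocaine groups together against drug-naive libraries, the intervals were narrower and still held 0 for all 7 genes. Drd1 averaged 20.9 ± 11.5 CPM in cocaine libraries (n = 6) and 18.2 ± 7.40 in drug-naive libraries (SD, n = 3), a log2 fold change of 0.18 (interval -0.67 to 1.04). Drd2 had -0.15 (-0.84 to 0.55), Drd3 0.33 (-0.18 to 0.84), Drd4 -0.45 (-1.27 to 0.38), Drd5 0.56 (-0.56 to 1.68), Maoa 0.37 (-0.21 to 0.95) and Maob 0.20 (-0.39 to 0.79). Of the 7, 5 were above 0, where 51.4% of all genes were. The sign of Drd1 turned to -0.07 without SUS replicate 2 and -0.04 without drug-naive replicate 1, and that of Drd2 to 0.01 without drug-naive replicate 2. The other 5 genes kept their sign with each library left out in turn.

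**Figure D3:**
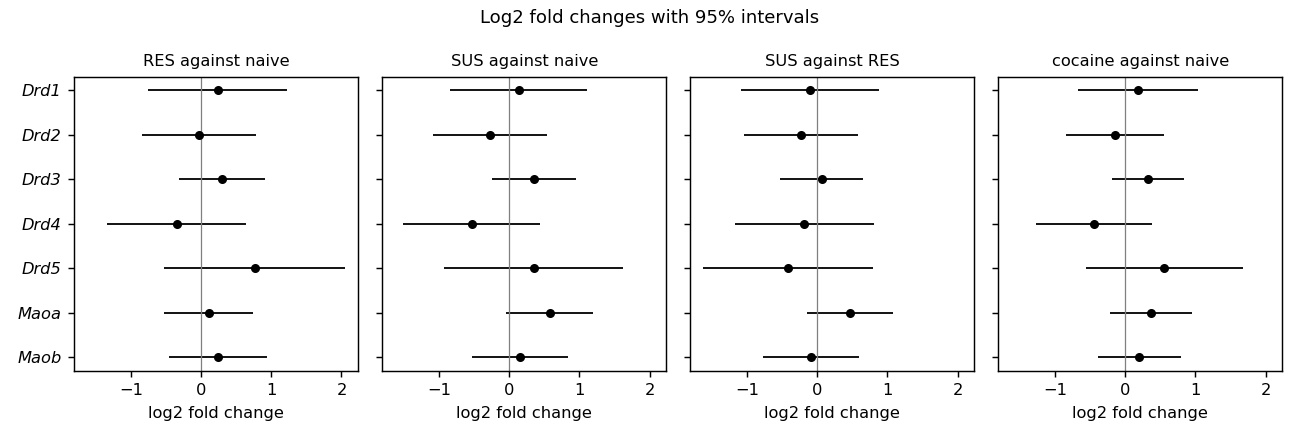
Log2 fold change of each gene in the 4 comparisons (points) with its 95% interval from the edgeR fit (lines), the first-named group over the second. All 28 intervals include 0, and that of Maoa in SUS against naive, -0.04 to 1.19, reaches least below it among the positive values.

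Because a ratio of genes within a library does not depend on how the library is scaled, the balance of the receptors and of the oxidases was compared as well. The ratio of Drd1 to Drd2 per exonic kb was 0.237, 0.529 and 0.612 in SUS replicates 1 to 3, 0.353, 0.469 and 0.441 in RES and 0.315, 0.247 and 0.485 in drug-naive libraries. It was below 1 in every library, and the groups overlapped. Drd1 lay below the silent autosomal median in SUS replicate 1 (1.196 against 1.746 times background), RES replicate 3 (1.69 against 2.078) and drug-naive replicate 1 (1.554 against 1.925). In those libraries the ratio may hold little Drd1 expression and is not a measured balance of the receptors. The mean log2 ratio was -1.24 ± 0.736 in SUS, -1.26 ± 0.216 in RES and -1.58 ± 0.494 in drug-naive libraries (SD, n = 3 each). The cocaine groups together differed from drug-naive libraries by 0.33 (two-sided exact permutation p = 0.369, adjusted p = 0.8 over 8 ratio comparisons), and 6 against 3 libraries cannot give a p under 0.0119. Between 3 and 3 libraries the smallest is 0.1, so those comparisons could not pass, and the differences were 0.32 between RES and naive (exact p = 0.4), 0.34 between SUS and naive (exact p = 0.6) and 0.02 between SUS and RES (exact p = 1.00). The last was -0.44 with background subtracted from both genes, -0.10 without RES replicate 1, -0.13 without SUS replicate 2 and -0.24 without SUS replicate 3. That subtraction takes off the olfactory receptor background alone, which is lower than the silent autosomal medians of 1.60 to 2.08 times background.

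Without background subtracted, the ratio of Maob to Maoa lay around 1. It was 1.04, 1.01 and 0.760 in SUS replicates 1 to 3, 1.32, 1.63 and 0.9 in RES and 1.25, 0.776 and 1.55 in drug-naive libraries. The mean log2 ratio was -0.11 ± 0.248 in SUS, 0.32 ± 0.433 in RES and 0.20 ± 0.511 in drug-naive libraries (SD, n = 3 each), and the groups overlapped. RES minus naive was 0.12, SUS minus naive -0.31, SUS minus RES -0.43 and cocaine minus naive -0.09, with two-sided exact permutation p-values of 0.7, 0.4, 0.3 and 0.762 and adjusted values of 0.8 to 0.871. The sign turned for RES against naive with background subtracted (-0.39), without drug-naive replicate 2 (-0.16) and without RES replicate 2 (-0.07). It also turned for cocaine against naive without drug-naive replicate 3 (0.12) and without SUS replicate 3 (0.00511). Maoa and Maob lay at 1.08 to 3.85 times background, so background may form part of both levels. With it subtracted, the log2 ratio ran from -1.335 in RES replicate 3 to 1.37 in drug-naive replicate 1. That subtraction takes off more than the silent X-linked medians of 0.623 to 0.816 times background.

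**Figure D4:**
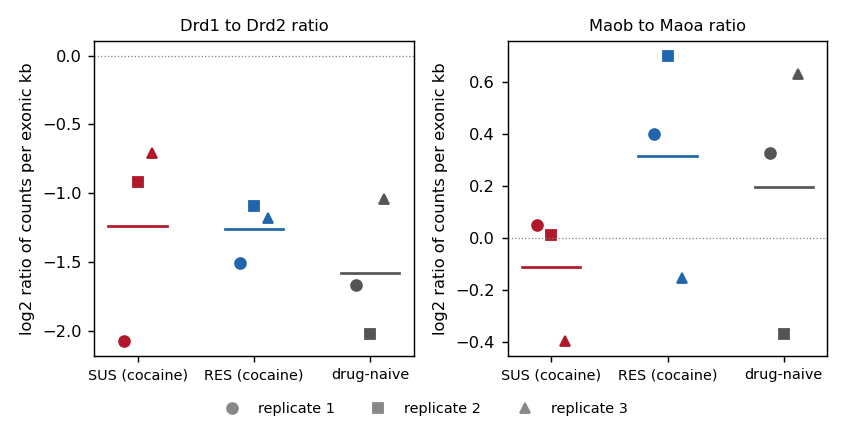
Log2 ratio of Drd1 to Drd2 and of Maob to Maoa, in counts per exonic kb, in SUS, RES and drug-naive libraries from left to right, with a bar at each group mean (n = 3) and symbols for the replicate. The Drd1 to Drd2 ratio is below 0 on the log2 scale in all 9 libraries, from 0.237 to 0.612 as a plain ratio, and the groups overlap in both panels.

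The other genes of the dopamine pathway gave 0 of 56 entries past the adjusted threshold in each of the 4 comparisons, in 5 lists. At an unadjusted p under 0.05 there were 6 in SUS against RES, where 5.68% of all genes were, and 0 in each of the other comparisons. These 6, named after their values were seen, were all higher in SUS, each with an adjusted p of 0.87 by edgeR. Arrb2, a beta-arrestin that uncouples receptors, had a log2 fold change of 1.37 (SE 0.46), Gnai2, an inhibitory G protein subunit, 1.24 (SE 0.548), and Grk2, a receptor kinase, 0.86 (SE 0.366). Akt1, a kinase downstream of the D2 receptor, had 0.80 (SE 0.343), Gnai3, another inhibitory subunit, 0.74 (SE 0.310), and Gch1, an enzyme of cofactor synthesis, 0.71 (SE 0.275). In the same comparison the 16 microglial markers had a median of 2.18, and their part in these values was not tested. Gch1 lay at only 0.327 to 0.703 times background over the libraries, under the silent autosomal medians of 1.60 to 2.08. The genes of dopamine synthesis and packaging were near silent genes, with list medians of 1.75 to 2.60 times background and 1 of 9 genes over 3 times background, and the 8 markers of midbrain dopamine neurons had 0 genes over it (list medians 1.48 to 2.03). Th, tyrosine hydroxylase, had log2 fold changes of 0.38 in RES and 0.36 in SUS against naive and 0.37 (SE 0.206) for cocaine against naive, and averaged 2.23 times background. Its SUS libraries were all above its drug-naive ones, as for 3.85% of all genes, and Th was among the genes named for a small p. Spr, sepiapterin reductase of cofactor synthesis, had 0.27 (SE 0.226) for cocaine against naive. In the list as a whole, 7 of 9 genes were above 0 in that comparison, with a median of 0.09 where all genes had 0.01. Genes of clearance and breakdown outside the oxidases were above 0 in 4 of 8 cases (median -0.00), with Adh5, an alcohol dehydrogenase, at 0.32 (SE 0.187, adjusted p = 1.0 by edgeR) and the aldehyde dehydrogenase Aldh1a1 at -0.14 (SE 0.207). Adh5 averaged 26.6 ± 2.96 CPM in cocaine libraries (n = 6) and 21.3 ± 1.57 in drug-naive libraries (SD, n = 3), without overlap between them, as for 0.617% of all genes, and it too was named for a small p.

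Levels of receptor signalling genes ranged widely, with 10 of 12 D1-type and 9 of 12 D2-type genes averaging over 3 times background and list medians over the libraries of 2.91 to 10.4 and 2.12 to 5.25. The lowest were Kcnj3 at 0.563 and Kcnj6 at 1.05 times background, subunits of potassium channels opened by G proteins. Adcy5, the main adenylyl cyclase of the striatum, averaged 56.7 times background and had a log2 fold change of -0.48 (SE 0.526) for cocaine against naive. Rgs9, which shortens signalling of inhibitory G proteins, averaged 29.2 times background and had -0.43 (SE 0.517). Ppp1r1a, a phosphatase inhibitor, had -0.17 (SE 0.267), and Gnaz, an inhibitory G protein subunit, -0.28 (SE 0.299). For cocaine against naive, 9 of 12 D1-type genes were below 0 (median -0.08), 6 of 12 D2-type genes (median -0.01) and 10 of 15 genes of receptor regulators (median -0.16), among the last the receptor kinase Grk5 at -0.19 (SE 0.205) and the calcium sensor Ncs1 at -0.25 (SE 0.314). In the same comparison 13 of 16 medium spiny neuron markers were below 0 (median -0.13), a list that shares Adcy5, Rgs9 and other genes with those of signalling. The medians of the 5 lists ran from -0.18 (D2-type) to 0.16 (synthesis and packaging) in RES against naive, from -0.12 (D1-type) to 0.15 (synthesis and packaging) with SUS in place of RES, and from -0.11 (D1-type) to 0.22 (clearance and breakdown) between SUS and RES.

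**Figure D5:**
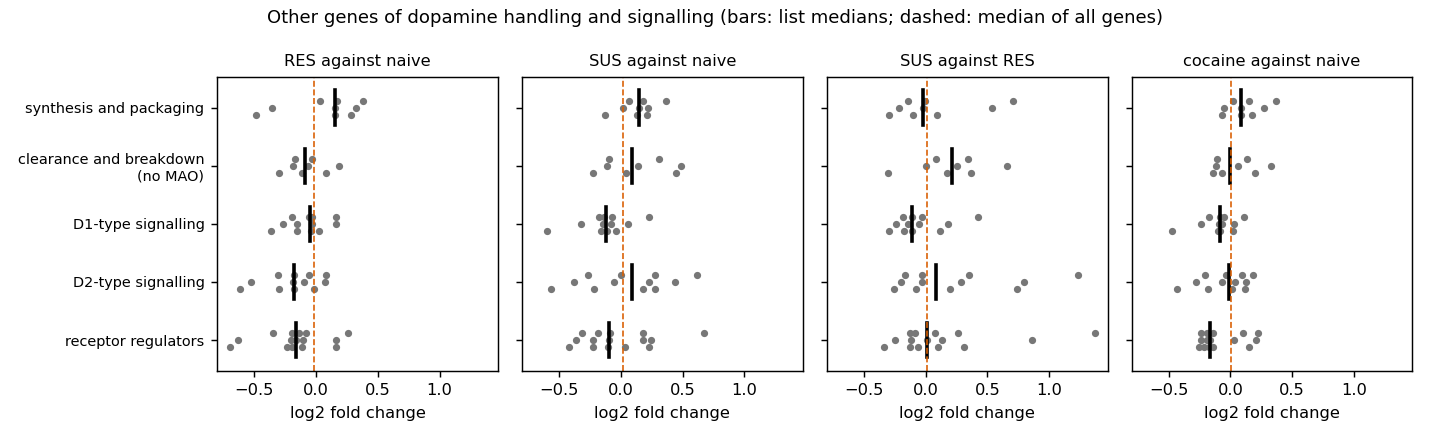
Log2 fold change of the genes of 5 lists of dopamine handling and signalling in the 4 comparisons, 1 point per gene, with a bar at each list median and a dashed line at the median of all 39210 genes. List medians lie between -0.18 and 0.22, and no point passes the adjusted threshold.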

How the data were processed

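The deposited table holds raw counts per Ensembl gene, whole numbers in 9 columns with unequal totals and so not scaled. STAR 2.5.2b, HTSeq, FastQC, DESeq2 and DESeq stand in the submitters' processing notes, without an order, with GRCm38 as the build. The annotation release and strand setting are not given in the sources used here. Gene symbols, positions and exon lengths came from GENCODE M21, which held 52489 of the 52636 IDs.

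After filterByExpr and TMM scaling, the quasi-likelihood test of edgeR 4.0.16 was run in R 4.3.3 (with limma 3.58.1), adjusted by Benjamini-Hochberg over all 39210 genes tested at 0.05. The 3 pairwise comparisons shared a model of 3 groups, and cocaine against naive used 2 groups. The F statistic of each fold change gave its standard error. Ratios were compared by exact permutation of libraries. Alternatives were DESeq2 1.42.0, limma-voom with sample weights, no filter, nuclear genes only, the replicate number as a block, other backgrounds and each library left out.

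The 7 genes and all lists were chosen with earlier results of these data known. Named pathway genes are the 2 of each list with the smallest p for cocaine against naive. Added to these after the values were seen were the genes with an unadjusted p under 0.05 by edgeR in SUS against RES. Kcnj3 and Kcnj6 were named as the lowest of the receptor signalling genes.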

Additional observations from a re-analysis of the deposited data

Results flagged for a closer look

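Of 9 values examined in the 6 cocaine libraries (the CPM of the 7 genes and the 2 log2 ratios), 1 had a library far from the others. Maoa was at 28.8 CPM in SUS replicate 3, and its gap to the next library was 0.681 of the range of the group, where 0.625 is the 95% limit for 6 libraries. Chance flags about 1 in 20 such groups. The same library had the highest medians of the microglial list (64.1 times background) and of the endothelial and mural list (3.98), and their part in the value of Maoa was not tested.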

How the results depend on the processing

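The number of genes called was 0 in all 4 comparisons under every alternative and with each library left out (lowest and highest 0). None of the 7 genes passed the adjusted threshold under any alternative, the smallest adjusted p being 0.366 with a library left out and 0.549 otherwise. At an unadjusted p under 0.05 there were 8 of 252 values with a library left out: Maoa (0.71, 0.73 and 0.75), Drd3 (0.61) and Drd2 (-0.81) in SUS against naive, and Drd1 (-0.90), Drd2 (-0.77) and Maoa (0.65) in SUS against RES. DESeq2, no filter on low counts and scaling on nuclear genes kept the sign of all 28 log2 fold changes. Sample weights (limma-voom) turned 7: Drd2 in RES against naive (0.0042), Drd1 (-0.64), Drd3 (-0.15) and Maob (-0.0106) in SUS against naive, and Drd3 (-0.31), Drd4 (0.26) and Drd5 (0.0721) in SUS against RES. With the replicate number as a block, Drd1 in SUS against naive turned to -0.11 and 0 genes were called. A pairing by number was not visible. Deviations of same-numbered libraries correlated at -0.49 to 0.44, above 0.1 in 3 of 9 pairs, and those of other pairs at -0.65 to 0.66. None of the libraries (0 of 9) correlated best with its own number. For SUS replicate 1 this was nearly a tie, 0.4394 with RES replicate 1 against 0.4402 with drug-naive replicate 2. Deviations from a mean of 3 libraries depend on each other, so this check cannot exclude a pairing.

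With 1 library left out, the log2 fold changes that turned ran, for RES against naive, from -0.19 to 0.64 (Drd1), -0.33 to 0.22 (Drd2), -0.0367 to 0.25 (Maoa) and -0.13 to 0.55 (Maob). For SUS against naive they ran from -0.67 to 0.54 (Drd1), -0.81 to 0.0187 (Drd2), -0.16 to 0.73 (Drd5) and -0.0559 to 0.41 (Maob). For SUS against RES they ran from -0.90 to 0.31 (Drd1), -0.77 to 0.0559 (Drd2), -0.0931 to 0.31 (Drd3), -0.50 to 0.42 (Drd4) and -0.40 to 0.29 (Maob). For cocaine against naive they ran from -0.0724 to 0.59 (Drd1) and -0.32 to 0.0122 (Drd2). The Drd1 to Drd2 ratio of SUS against RES ran from -0.24 to 0.44 and was -0.44 with background subtracted. The Maob to Maoa ratio ran from -0.16 to 0.35 in RES against naive (-0.39 with background subtracted) and from -0.38 to 0.12 in cocaine against naive. The cause of these turns was not tested. Against silent genes, the level fell from 2.783 to 1.435 for Drd1, 6.828 to 3.548 for Drd2, 2.767 to 1.46 for Drd3 and 0.418 to 0.22 for Drd4. Only the shifts of Drd3 and Drd4 exceeded their spread between replicates (0.7686 and 0.1606), which was narrower than for Drd1 (1.79) and Drd2 (3.283). The size of a shift was judged against that spread, and whether a level is less stable was not tested. Depth limits Drd4 and Drd5 most, with 190 and 104 counts over all 9 libraries.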
